A study of Mus musculus with 2 samples.

Results

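The serum amyloid A genes are 4 neighbouring genes, Saa1, Saa2, Saa3 and Saa4, that encode small apolipoproteins of inflammation. They were found by gene symbol in the array's annotation: each had 1 probe set (a group of probes summarised into 1 signal), and none shared its probe set with another symbol. This gives 4 genes of the 19938 with a probe set of their own symbol. The genes were selected with the signals and differences of these arrays already known, so their values are given as a description, without a test.

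In the mouse, Saa1 and Saa2 are classic acute-phase genes: cytokines such as interleukin 1, interleukin 6 and tumour necrosis factor switch them on in hepatocytes, and the proteins circulate on high-density lipoprotein. Saa1 and Saa2 are also made by intestinal epithelium in response to microbes. Saa3 is produced mainly outside the liver, by macrophages, fat tissue and epithelia under inflammatory stimulation, whereas Saa4 is regarded as a constitutive form. Secreted serum amyloid A binds lipids and retinol, attracts phagocytes and signals through several receptors of innate immunity.

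The series asked how inflammatory macrophages of the mouse colon differ from control ones. The control group was 1 array of lamina propria macrophages from mice given drinking water for 5 days. The DSS group was 1 array of the same sorted population from mice given 3% (wt/vol) DSS (dextran sulfate sodium, a sulfated polymer that damages the colonic epithelium and so causes colitis) in the water for 5 days. Both populations were sorted as CD45+IAb+CD11b+F4/80+CD103- cells. Strain, sex, age and the number of animals behind an array were not given in the sources used here. With 1 array in a group there is no replicate error and no p-value, every difference compares these 2 arrays only, and any difference in hybridisation or handling cannot be told apart from the treatment.

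All values are log2 signals as deposited, a difference is the DSS signal minus the control signal, and folds were computed as 2 raised to that difference. The array medians, taken over 28939 probe sets, were 5.70 in control and 5.62 in DSS, and a gene passed the signal rule when at least 1 array had it at or above its median. A gene can pass through 1 array alone, so counts and medians over genes that passed lean towards genes that differ. The antigens used for sorting read high on both arrays where the gate was positive: Ptprc (CD45) 11.54 in control and 11.94 in DSS, H2-Ab1 (IAb) 11.99 and 12.13, Itgam (CD11b) 9.59 and 10.19, and Adgre1 (F4/80) 11.65 and 10.82. Itgae, which encodes the CD103 antigen excluded by the gate, read 4.89 and 4.91.

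Of the serum amyloid A genes, Saa3 alone was far apart between the arrays, and Saa1, Saa2 and Saa4 were dim on both. Saa3 (probe set 10563597, Entrez gene 20210) had a log2 signal of 5.74 in control and 11.59 in DSS. The DSS array was the high one, by 5.85 on the log2 scale, or 57.7-fold. Its control signal lay only 0.04 above that array's median, and its DSS signal lay 5.97 above the median of the DSS array. Because the files hold no detection calls, a control signal this close to the median cannot be told from background, and the fold is not exact. Among the 28939 probe sets behind the medians, Saa3 moved from above 50.7% of them in control to above 97.6% of them in DSS.

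Saa1 (probe set 10563611, Entrez gene 20208), the first of the hepatic acute-phase pair, read 4.37 in control and 4.34 in DSS. Saa2 (probe set 10553274, Entrez gene 20209), its partner, read 4.11 in control and 4.02 in DSS. Saa4 (probe set 10563602, Entrez gene 20211), the constitutive form, read 3.64 in control and 3.93 in DSS. All of these signals lay below the lower quartile of their array, which was 4.58 in control and 4.51 in DSS. The differences were -0.03 for Saa1, -0.10 for Saa2 and 0.28 for Saa4, and that of Saa1 changed sign under median or loess centring of the arrays, so no direction is given for it. Among the 8775 genes below the median on both arrays, an absolute difference at least as large was found for 89.2% in the case of Saa1, 60.6% for Saa2 and 16.5% for Saa4. None of the 3 differences reached 2-fold. Signals under the median say that no transcript stood clear of the dimmer probe sets of the array, not that the transcript was absent.

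Only 1 of the 4 genes, Saa3, passed the signal rule, and it did so on both arrays. In all, 11163 genes passed the rule, of which 445 (3.99%) were at least 2-fold higher on the DSS array and 338 (3.03%) at least 2-fold lower. Saa3 was chosen on this same contrast, so nothing is read from its place in these counts. Its difference was number 6 from the top of 19938 genes. Among the 2124 genes whose control signal lay within 0.25 of that of Saa3, the differences ran from -1.45 to 6.01 with a median of -0.14. In this set 58 genes exceeded the control by 2-fold or more and 6 by 16-fold or more, and the differences of 2 were above that of Saa3.

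**Figure D1:**
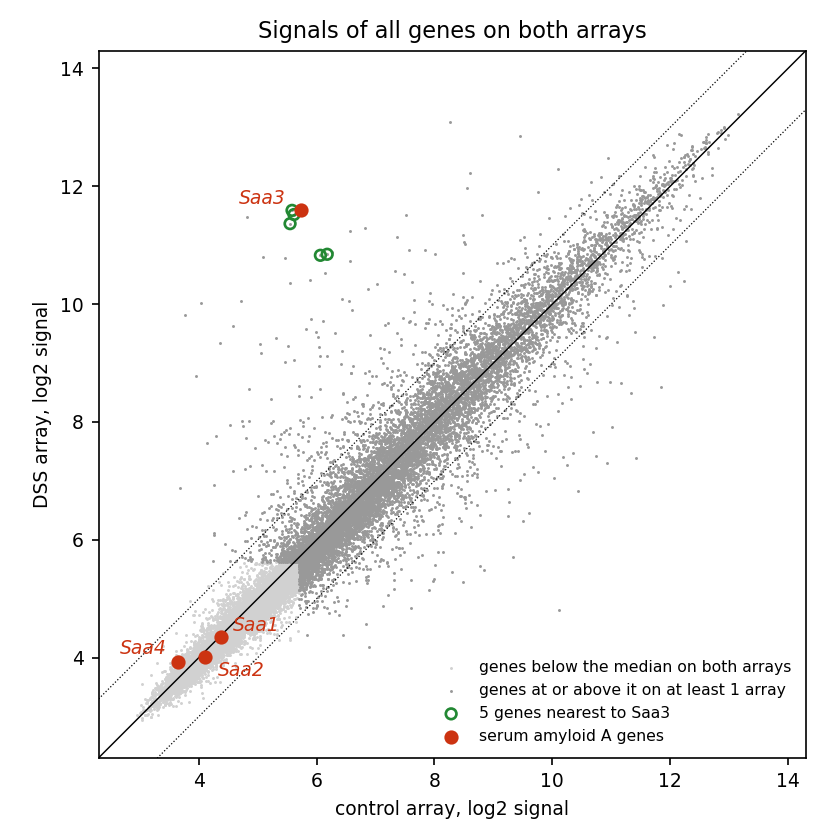
Log2 signal on the control array (x axis) against the DSS array (y axis) for every gene, with the line of equal signal and dotted lines at 2-fold. Saa3 lies at 5.74 and 11.59, beside the 5 genes with the most similar pair of signals (green rings), while Saa1, Saa2 and Saa4 (red points) lie among the dim genes near the line of equal signal. Predicted genes and antigen receptor segments were left out when the 5 genes were picked.

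Saa1 and Saa2 are close copies, and RefSeq lists each symbol as a synonym of the other. Probes of one may bind the transcript of the other, which the deposited signals cannot resolve. Both probe sets were dim on both arrays, so whichever way these names and probes are assigned, neither signal rose above the lower quartile.

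The members lie side by side on chromosome 7 in the order Saa3, Saa4, Saa1, Saa2, with the pseudogene Saa-ps and the non-coding gene Gm31882 between them, for which no named probe set was used here. The difference seen at Saa3 was not shared by the genes next to the cluster. Saal1, which adjoins Saa3 and is named for its similarity to serum amyloid A, read 7.22 in control and 7.19 in DSS. Beyond it, Tph1, the serotonin-synthesis enzyme tryptophan hydroxylase, read 4.62 and 4.44, and Sergef 6.45 and 6.74. On the side of Saa2, Hps5, a subunit of an organelle-biogenesis complex, read 7.91 and 7.97, and Gtf2h1, a subunit of the transcription factor TFIIH, 8.32 and 8.11. Ldha, the lactate dehydrogenase A of glycolysis, had the largest difference among these 6 flanking genes, 9.18 in control and 9.99 in DSS, a 1.75-fold higher value. None of the 6 reached 2-fold.

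**Figure D2:**
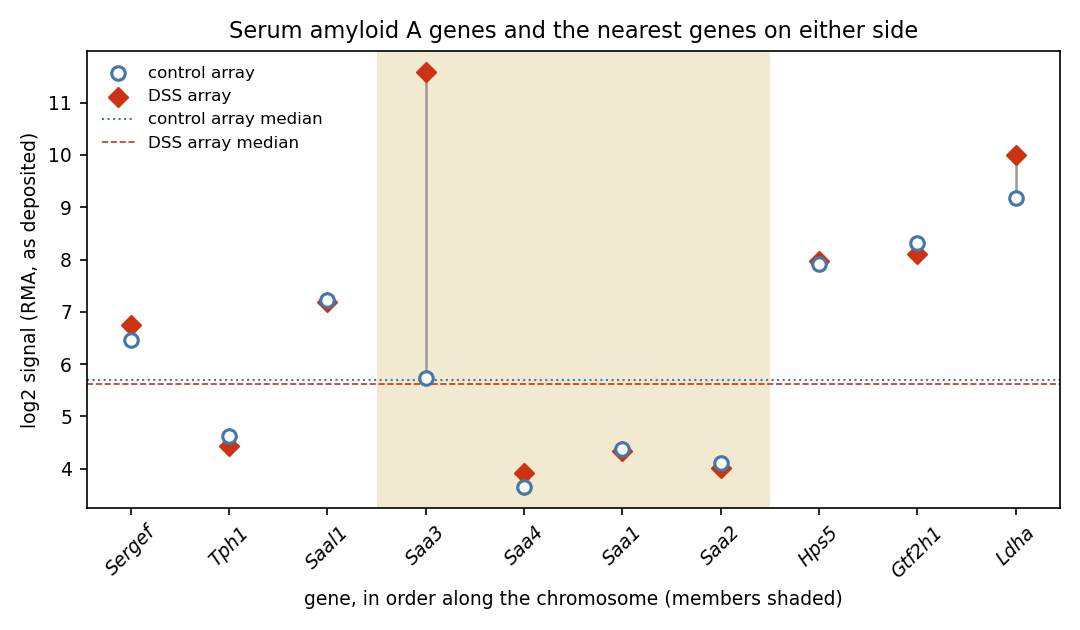
Log2 signal on the control array (open circles) and the DSS array (filled diamonds) for the 4 serum amyloid A genes (shaded) and the 3 genes with a probe set on either side, in chromosome order but not to distance, with the medians of both arrays as horizontal lines. Saa3 goes from 5.74 to 11.59, and every other gene shown has both signals within 0.81 of each other.

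The upstream sequences of Saa3 and Saa1 are shown because they let a reader compare the gene that was high in DSS with a neighbour that was dim on both arrays. They are the 250 bases before the annotated start, taken from RefSeq (build GRCm38.p6), both on the minus strand and written 5′ to 3′, at chr7:46715677-46715926 for Saa3 and chr7:46742981-46743230 for Saa1. Capitals mark matches on either strand to TTGCNNAA, a form of the C/EBP motif, and to the relaxed NF-kB consensus (guanine, purine, any base, pyrimidine and cytosine, each doubled, in that order). C/EBP and NF-kB are the transcription factor families best known for acute-phase induction of these genes.
Saa3: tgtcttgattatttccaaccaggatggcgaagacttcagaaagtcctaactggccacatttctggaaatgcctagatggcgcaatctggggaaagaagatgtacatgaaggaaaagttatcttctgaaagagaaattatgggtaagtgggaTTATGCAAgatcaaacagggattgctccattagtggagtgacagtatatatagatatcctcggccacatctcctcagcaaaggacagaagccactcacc
Saa1: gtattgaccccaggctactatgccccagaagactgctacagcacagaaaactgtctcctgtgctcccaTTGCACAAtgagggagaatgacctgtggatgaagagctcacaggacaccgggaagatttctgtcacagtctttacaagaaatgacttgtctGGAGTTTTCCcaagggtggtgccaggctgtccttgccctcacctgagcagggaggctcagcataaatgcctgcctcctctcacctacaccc

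All 4 members had the C/EBP letters in this window, which 9.56% of 32851 RefSeq promoter windows of the same length did. Saa3 held 1 match, TTATGCAA, from base 99 to base 92 before the start. Saa1 held TTGCACAA from base 182 to base 175, Saa2 held the same letters from base 183 to base 176, and Saa4 held 2 matches. The NF-kB consensus was found in Saa1 alone, as GGAGTTTTCC from base 91 to base 82 before the start, and in 9.55% of all windows. The windows of Saa1 and Saa2 were 94.8% identical in a global alignment, while that of Saa3 was 52.2% identical to Saa1 and 52.4% to Saa2, with gap columns counted. The STAT letters TTCNNNGAA (7.02% of windows), the AP-1 letters TGANTCA (6.75%) and the TATA letters TATAAA (12.4%) were found in none of the 4. The motifs were picked after the sequences had been seen. A match is a run of letters and not a measured binding site.

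Among genes that are known to induce or regulate serum amyloid A, Il6 and Il1rap were more than 2-fold higher in DSS. Of 32 listed genes, 28 had a probe set of their own symbol, 25 passed the signal rule, and 23 of these differed by less than 2-fold. The other 2 were higher in DSS, and 0 were lower by that size. Over all genes that passed, 3.99% were higher and 3.03% lower, so the counts of this list are near the background. Their median difference was 0.08, against -0.03 for all 11163 genes, and it was -0.0021 under loess centring. Il6, a principal inducer of the acute phase, read 6.42 in control and 8.98 in DSS, or 5.91-fold higher. Il1rap, the shared co-receptor chain of the interleukin 1 family, read 5.70 and 8.45, or 6.70-fold higher, from a control signal at the array's median.

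The other cytokines that passed the signal rule differed by less than 2-fold, although Lif exceeded it under median and loess centring, with differences of 1.02 and 1.03. Il1b read 12.18 in control and 12.86 in DSS, Il1a 11.47 and 11.95, and Tnf 10.74 and 10.72. Osm, of the interleukin 6 family, read 8.14 and 9.06, and Lif, of the same family, 6.17 and 7.11. The shared receptor chain Il6st went from 10.31 to 9.51 and the interleukin 6 receptor Il6ra from 7.97 to 7.47, so the ligand Il6 was higher on the DSS array and both receptor chains were somewhat lower. Il11, Ifng and Osmr did not pass the signal rule.

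Among the transcription factors, none reached 2-fold. Cebpb read 7.54 in control and 7.79 in DSS, Cebpd 7.22 and 6.79, and Cebpa 8.44 and 7.93. The NF-kB subunits Rela, Rel, Nfkb2 and Relb had differences of 0.10, 0.11, 0.08 and -0.15. Stat3, which carries the interleukin 6 signal, read 9.71 and 9.85. Nr3c1, the glucocorticoid receptor, read 9.08 in control and 8.40 in DSS. These are transcript signals and carry no information on the activity of the proteins.

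The receptors reported for serum amyloid A differed in both directions. All 11 measured genes of 14 passed the signal rule. At a size of 2-fold, 2 were higher in DSS, 2 were lower and 7 were neither, and the median difference was -0.10. Over all genes that passed, 3.99% were higher and 3.03% lower by that size. Tlr2, a receptor for bacterial lipoproteins and for serum amyloid A, read 10.56 in control and 11.23 in DSS. Its dimer partner Tlr1 read 9.57 and 10.62, or 2.07-fold higher, and the partner Tlr6 read 7.26 and 8.59, or 2.51-fold higher. Tlr1 was no longer past 2-fold under loess centring, where 1 gene of the list was. The endotoxin receptor Tlr4 had a difference of -0.12, and its partner Ly96 one of -0.10.

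The lower receptors were Cd36, a scavenger receptor that takes up lipids, at 11.85 in control and 8.60 in DSS (9.49-fold lower), and P2rx7, an ATP-gated channel, at 10.10 and 8.48 (3.08-fold lower). Scarb1, the high-density lipoprotein receptor, read 7.49 and 7.61, and Lrp1 read 8.69 and 8.50. Ager, the receptor for advanced glycation end products, read 6.82 and 6.35. The formyl peptide receptor genes Fpr1, Fpr2 and Fpr3 had no probe set listed under their symbol alone and were not analysed here. Probe sets that list several symbols were not searched for them, so the array may still carry probes for these genes.

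Other acute-phase genes differed in both directions, and several were dim on both arrays. Of 32 listed genes, 28 were measured and 18 passed the signal rule. Of these, 7 were higher in DSS by 2-fold or more, 3 were lower by as much and 8 were neither. Over all genes that passed, the shares were 3.99% higher and 3.03% lower. The median difference of the 18 was 0.53. Lcn2, Orm1 and Ptx3 passed only through the DSS array. The 10 measured genes that did not pass differed by less than 2-fold, so this median does not stand for the whole list. Without Lcn2 and Hp, which the neutrophil and monocyte lists share, 5 of 16 were higher by that size and the median was 0.35. Lcn2, the siderophore-binding lipocalin, read 5.58 in control and 11.59 in DSS. Hp, the haemoglobin-binding haptoglobin, read 6.06 and 10.83, Lrg1, a leucine-rich glycoprotein, 6.02 and 9.44, and Cfb, complement factor B, 7.85 and 10.91. In the lower direction, Cp, the copper oxidase ceruloplasmin, read 9.03 and 6.84, and the metallothionein gene Mt2 10.20 and 8.80.

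The 10 acute-phase genes that did not pass the signal rule included several that hepatocytes are known to secrete. Of these, chosen after their values were seen, Crp read 4.0 in control and 4.22 in DSS, Apcs (serum amyloid P) 4.11 and 4.02, and the fibrinogen chain Fga 4.63 and 4.45. The other fibrinogen chains, Fgb and Fgg, had differences of -0.13 and -0.15. Saa1 and Saa2 were dim in the same way, and Saa3 was not. These dim genes do not stand for the list, of which 18 genes passed the signal rule. Besides Hp and Lrg1, Serpina3n (6.25 and 7.73) and Orm1 (5.58 and 6.69) were more than 2-fold higher in DSS.

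Lipoprotein and cholesterol export genes, which bear on the particle that carries serum amyloid A, had a median difference of -0.12. Of 20 listed genes 12 passed the signal rule, of which 0 were higher and 2 lower by 2-fold or more, beside 3.99% and 3.03% of all genes. Pon3, a paraoxonase, read 8.54 in control and 7.47 in DSS, and Pltp, the phospholipid transfer protein, 11.01 and 9.99, but under median centring neither reached 2-fold. Abca1, the cholesterol exporter, read 10.10 and 9.44. Apoa1, the main protein of high-density lipoprotein, read 6.45 on both arrays. Furthest the other way lay Apoc1, at 5.31 and 6.19, and Apod, at 5.51 and 6.13.

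Serum amyloid A of the gut is tied to the type 17 response, and the list of type 17 and epithelial defence genes had a median difference of 1.11. Of 28 listed genes 17 passed the signal rule, with 9 higher in DSS by 2-fold or more and 0 lower by as much. The shares over all genes that passed were 3.99% and 3.03%. Besides Lcn2, the largest differences belonged to the calprotectin subunits S100a8 (8.27 and 13.10) and S100a9 (9.45 and 12.85) and to the antimicrobial lectin Reg3b (5.03 and 9.32). Of these leaders, 3 are also in the neutrophil list. Without the genes shared with the neutrophil and monocyte lists the median was 0.66, with 6 of 14 genes at least 2-fold higher. Furthest the other way lay Cxcl1, a chemokine for neutrophils, at 10.27 and 9.81, and Il17c with a difference of -0.20. Other list genes were chosen after their values were seen. Il17a read 5.58 and 5.42, below the median on both arrays, and Il17f had a difference of -0.13. Il23r, Ccr6, Ccl20 and Csf2 did not pass the signal rule. Il23a, at 6.58 and 8.82, and Il17ra, at 8.60 and 9.71, were more than 2-fold higher. The list median is thus not a measure of interleukin 17 transcripts.

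**Figure D3:**
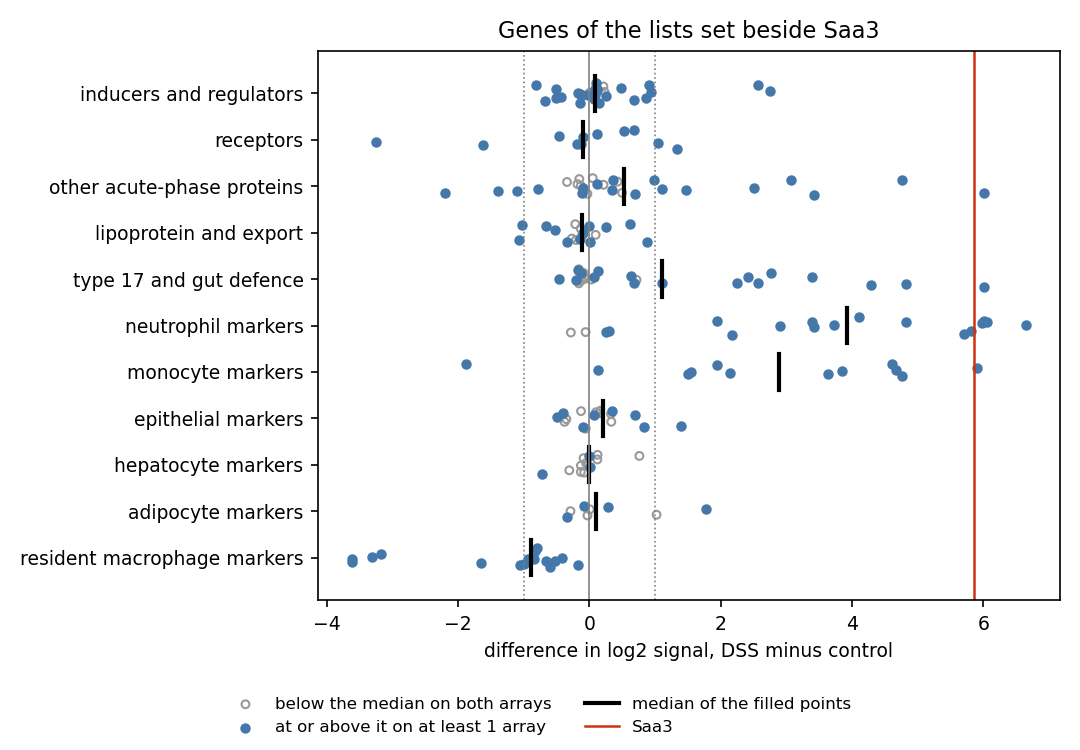
Difference in log2 signal, DSS minus control, for each measured gene of 11 lists (points, spread vertically for legibility), with filled points for genes that passed the signal rule, a black bar at their median, dotted lines at 2-fold and a red line at Saa3. The red line at 5.85 is reached or passed only by genes of the neutrophil and monocyte lists and by Lcn2, which the acute-phase and type 17 lists share with the neutrophil list, while the inducer and receptor medians are 0.08 and -0.10.

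Genes were ranked by likeness to Saa3 after predicted genes and antigen receptor segments had been left out. Among the rest, the genes with the pair of signals most like that of Saa3, by Euclidean distance over the 2 arrays, were Chil3 (0.14), which encodes a secreted chitinase-like lectin, Lcn2 (0.16) and Cxcr2 (0.30), a chemokine receptor of neutrophils. Hp (0.83) and Hdc (0.87), the histamine-forming enzyme, followed at a larger distance. Cxcr2 read 5.55 in control and 11.37 in DSS, and Hdc 6.18 and 10.85. With 2 arrays, this likeness covers only a pair of values for each gene.

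Markers of other myeloid cells were far apart between the arrays together with Saa3. Of 20 neutrophil markers 18 were measured, and 16 passed the signal rule. In DSS 14 of the 16 exceeded the control by 2-fold or more, 0 were lower by as much, and the median difference was 3.92. Of the 16, Ly6g, Mmp8, Ltf, Camp, Ngp, Cxcr2, Mpo, Lcn2, Stfa2 and Stfa3 passed only through the DSS array. Elane and Ctsg, with differences of -0.28 and -0.06, did not pass, so the median of 3.92 leaves them out. Of all genes that passed, 3.99% were higher and 3.03% lower by that size. The signals of the 18 ran from 3.77 to 9.45 in control (median 5.45) and from 3.86 to 13.10 in DSS (median 9.62). Ly6g, the defining neutrophil antigen, read 4.04 and 10.01, Mmp8, the neutrophil collagenase, 4.82 and 11.47, and Stfa3, a stefin, 3.77 and 9.82. Prtn3, a protease of granulocyte precursors, read 5.94 and 6.20.

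Of 15 monocyte markers 12 were measured, and all of them passed the signal rule. In DSS 10 exceeded the control by 2-fold or more and 1, F13a1 (11.41 and 9.53), was lower by as much, with a median difference of 2.89. The signals ran from 5.62 to 11.41 in control (median 6.60) and from 6.77 to 12.23 in DSS (median 10.43). Chil3, Hp, Ifitm6 and Trem1 led, Ifitm6 at 6.57 and 11.23 and Trem1 at 6.27 and 10.88. Resident intestinal macrophage markers went the other way, with 6 of 16 lower in DSS by 2-fold or more and 0 higher by as much. Their median difference was -0.88. Beside both lists, 3.99% of all genes that passed were higher and 3.03% lower. Folr2 led at 9.33 in control and 5.71 in DSS. In RNA of a sorted population, a change in the mix of cells and a change in RNA per cell cannot be told apart, and the part of these cells in the Saa3 signal was not tested.

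The listed markers of other cell types that can make serum amyloid A differed less between the arrays. Of 17 measured epithelial markers 8 passed the signal rule, 1 was at least 2-fold higher and 0 were lower, with a median difference of 0.21. Of all genes that passed, 3.99% were higher and 3.03% lower by that size. The signals of the 17 ran from 4.25 to 8.0 in control and from 4.12 to 8.84 in DSS. Epcam, a defining epithelial antigen, read 4.36 and 4.70. Fabp2, an enterocyte fatty acid binding protein, read 5.96 and 7.36, and Cdx1 lay furthest the other way at 5.99 and 5.49. Reg3b and Reg3g were counted among the type 17 and epithelial defence genes, so the epithelial counts and median leave them out. Their differences were 4.28 and 2.41, whereas Reg3a, Pigr, Duox2 and Duoxa2 of that list differed by less than 2-fold.

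Of 13 measured hepatocyte markers 3 passed the signal rule, none of them 2-fold apart. The defining marker Alb (albumin) read 4.52 in control and 4.39 in DSS. Trf (transferrin) read 11.52 and 10.79. Of 8 measured adipocyte markers 4 passed, and Fabp4, which macrophages also express, was 3.43-fold higher at 6.89 and 8.67. Adipoq (adiponectin), which defines adipocytes, read 4.41 and 5.43, below the median on both arrays. Of 14 fibroblast, muscle and endothelial markers 10 passed, with 0 higher and 1 lower in DSS at 2-fold. The shares over all genes that passed were 3.99% and 3.03%. The median difference of these markers was -0.07, which was 0.01 under median centring. The lower gene was Pdpn (podoplanin), at 10.09 and 8.18. The part of these cell types in the Saa3 signal was not tested beyond these marker levels.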

How the data were processed

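The authors deposited log2 signals of 35556 probe sets, from 2 arrays, in a single table. Per the submitters' processing notes these come from RMA (background correction, quantile normalisation and summarisation of probes), without a version. Its settings were not given in the sources used here, and the values were used unchanged. RMA compresses differences between dim probe sets, so folds from dim signals are uncertain.

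Probe sets were named from the platform annotation: 21789 had 1 gene symbol, 1621 several and 12146 none listed. Listed genes were taken only from probe sets with 1 symbol, and a gene without one counts as not measured. Where a gene had several such probe sets, that of highest mean signal was used. Array medians left out probe sets with identifiers below the lowest annotated one. Genes were counted at 2-fold. As a yardstick, the SD of the difference between probe sets of the same gene was 0.28 over 638 genes, which covers probe noise only. The number of arrays limits the precision.

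The members, the 15 gene lists and the motifs were chosen with earlier results of these data known. Named genes were the members, the list genes with the largest differences (4) and those furthest the other way (2), any inducer or receptor, the 5 genes nearest to Saa3 and the 3 flanking genes on each side. Predicted genes and antigen receptor segments were not eligible for the 5 nearest. The text says of other genes that they were picked with their values in view. The alternatives were scaling, a floor at the 25th percentile, the signal rule, folds of 1.5 and 3 and the summary over probe sets. The steps were tested on simulated data. Python 3.11.15, numpy 2.4.6, pandas 2.3.3, statsmodels 0.14.6 and matplotlib 3.10.9 were used.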

Additional observations from a re-analysis of the deposited data

How the results depend on the processing

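The Saa3 difference of 5.85 was 5.94 under median centring, 5.79 under loess centring (span 0.4) and 5.85 with signals floored at the 25th percentile. Saa1, Saa2 and Saa4 stayed within 2-fold under each of these. With the floor, at 4.54, all signals of Saa1, Saa2 and Saa4 were at the floor, so the difference of Saa4 went from 0.28 to 0.00 and the 3 genes have no order. Alternatives on the choice of probe set gave no value for the members, since each has 1. A fold of 1.5 gave 1100 genes higher and 982 lower, and a fold of 3 gave 183 and 118, because the threshold itself moved. The other alternatives kept both counts within 1.5 times those reported. No paired analysis was possible because the result comes from no test and each group has 1 array. Without detection calls, signals near or under the array medians cannot be told from background, which limits the size of the Saa3 fold and any statement on Saa1, Saa2 and Saa4.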

Other observations

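Proteases reported to cleave serum amyloid A differed in both directions. Of 16 listed genes 12 passed the signal rule. At 2-fold, 2 were higher in DSS and 2 lower, and the sign of the median difference depended on the scaling (-0.0027 as deposited, 0.08 under median centring and -0.16 under loess centring). Under loess centring 3 were lower. Of all genes that passed, 3.99% were higher and 3.03% lower as deposited. Without Mmp8 and Prtn3, which are also neutrophil markers, 1 of 10 was higher, 2 were lower and the median was -0.29. Mmp8 had the largest difference, and Plau, the urokinase plasminogen activator, read 10.64 in control and 8.99 in DSS. The matrix metalloproteinase gene Mmp13 read 11.36 and 10.06, and Mmp9, of the same family, 7.80 and 8.99. The cathepsin genes Ctsb, Ctsd, Ctsl and Ctss, chosen after their values were seen, read between 10.34 and 12.68 over both arrays, with differences of -0.40, -0.32, -0.26 and 0.30.

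Serum amyloid A also binds retinol. Of 18 genes of retinol handling 9 passed the signal rule, with 0 higher in DSS by 2-fold or more and 1 lower by as much. The shares over all genes that passed were 3.99% and 3.03%. The median difference of the list was -0.03 and turned to 0.05 under median centring. The lower gene was Rdh10, a retinol dehydrogenase, at 8.55 in control and 7.43 in DSS. Crabp2, a retinoic acid binding protein, lay furthest the other way at 5.02 and 5.92, and under loess centring 1 gene reached 2-fold in the higher direction.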
